A study of Mus musculus with 20 samples.

Results

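The mitochondrial ribosomal protein genes of the mouse were followed through the long-term culture of CD8 and CD4 T cells. Members were taken by name, as protein-coding genes whose symbol is Mrpl or Mrps, a number and at most 1 further letter. Of 49671 genes in the count table, 78 met this rule, 49 with a large subunit name (Mrpl) and 29 with a small subunit name (Mrps). RNA was counted in 20 libraries, 5 each from CD8 T cells at week 4, CD8 T cells at week 1, CD4 T cells at week 3 and CD4 T cells at week 1. All cells came from spleen and inguinal lymph nodes, were stimulated on plates coated with anti-CD3/CD28 with 1 ng/mL IL-2, and were then grown with IL-15 at 50 ng/mL plus IL-7 at 10 ng/mL, which sustain memory T cells. That growth lasted 25 days for CD8 week 4, 18 days for CD4 week 3 and 4 days for both week 1 groups, so the long-term groups of the 2 lineages differ in days of culture. Stimulation took 72 h for polyclonal cells of albino B6 mice and 24 h for T cell receptor transgenic cells of Marilyn-BLITC and MataHari-BLITC mice, and the labels do not say which library came from which. Cells were sorted as CD44+CD62L+ before RNA isolation, the surface phenotype of central memory cells. The labels name no animal or culture, so p-values measure the spread between these libraries only, which may be technical.

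The mitochondrial ribosome translates the few messages encoded by mitochondrial DNA, which all specify subunits of the oxidative phosphorylation complexes. Its RNA comes from mitochondrial DNA, whereas its proteins are encoded in the nucleus, made on cytoplasmic ribosomes and imported. Some of these proteins have a counterpart in the bacterial ribosome and others exist only in mitochondria. In T cells, activation is known to raise mitochondrial mass and translation, and memory cells are known for their reliance on mitochondrial respiration.

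Library totals ran from 13264302 to 28342449 counts, and levels are given as CPM, counts scaled to a common library size. Lineage markers followed the labels. Cd8a had 626 to 1549 CPM in CD8 week 4 and 755 to 1330 CPM in CD8 week 1, whereas Cd4 was listed at 0 in CD8 week 4 and had at most 0.585 CPM in CD8 week 1. Cd4 had 510 to 867 CPM in CD4 week 3 and 608 to 899 CPM in CD4 week 1, where Cd8a had 0.267 to 17.4 CPM and 0.0509 to 1.83 CPM. The summed level of 6 B cell markers was 1.15 to 8.84 CPM in CD8 week 4 and 9.73 to 13.6 CPM in CD8 week 1. In each CD8 group only 1 of these 6 was at 1 CPM or more, and Ms4a1 and Pax5 were at 0 in week 4. The summed level of 6 myeloid markers stayed at or under 1.78 CPM in all groups. The summed level of 5 NK cell markers (Ncr1, Klrb1c, Klra8, Eomes and Nkg7) was 828 to 1074 CPM in CD8 week 4. In CD8 week 1 it was 719 to 875 CPM. None of the 5 was at 0, and 4 were at 1 CPM or more in CD8 week 4 and 3 in CD8 week 1. The median of these markers was at or under 22.95 CPM in each CD8 group, so most of the sum came from the markers above it. In CD4 cells the summed level of these markers was 20.8 to 122 CPM at week 3 and 22.9 to 96.7 CPM at week 1. Klra8 was at 0 in both CD4 groups and Ncr1 in week 1. The summed level of 4 erythroid markers was at most 0.0754 CPM in CD8 cells, and 0.133 to 18.8 CPM in CD4 week 3 and 0.257 to 2.20 CPM in CD4 week 1. The part of these markers in the results was not tested. A list of 16 genes of S phase and mitosis separated some libraries from their groups. Its summed level was 1868 to 2613 CPM in CD8 week 4, and 6726 to 7505 CPM in 4 libraries of CD8 week 1 but 3214 CPM in replicate 3. In CD4 cells it was 681 to 1392 CPM in 4 libraries of week 3 but 3768 CPM in replicate 2, against 2587 to 5093 CPM in week 1. Results are therefore also given without CD4 week 3 replicate 2 and CD8 week 1 replicate 3. In bulk RNA, fewer cells of a kind and less RNA per cell cannot be told apart.

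The promoters of 69 members were in the RefSeq promoter table of GRCm38, from 250 bases before to 50 bases after the start site. They were searched on both strands for 5 short motifs. The ETS motif CCGGAAG, bound by GABP among others, was in 25 of the 69 (36.2%), against 11.9% of 17492 protein-coding promoters of the same length. GCATGCG, the core of the NRF1 site, was in 11.6% of member promoters and in 4.49% of all, and AAGATGG, the core of the YY1 site, was in 18.8% and 6.37%. CACGTG, the E-box of Myc and Max, was in 7.25% of member promoters and 7.90% of all. The Sp1 motif GGGCGG was in 49.3% and 46.3%. These are letter matches only, and CCGGAAG and AAGATGG were less frequent in member promoters when only the bases before the start site were read (24.6% and 8.70%, against 9.13% and 4.10% of all). Stretches free of annotated exons are printed here 5′ to 3′ on the gene's strand, in lower case with motif letters in capitals. They show a member that rose in both lineages and holds no motif letters (Mrpl24), a member with ETS and YY1 letters that differed between the lineages at the long-term points (Mrpl52), one with ETS letters (Mrpl58) and one with NRF1 letters that read the same on both strands (Mrpl10). The last line holds the exon-free bases between the RefSeq start sites of Mrps11 and Mrpl46, read on the strand of Mrps11. These members lie on opposite strands and both fell in CD8 cells.
Mrpl24, chr3:87919386-87919505 (+): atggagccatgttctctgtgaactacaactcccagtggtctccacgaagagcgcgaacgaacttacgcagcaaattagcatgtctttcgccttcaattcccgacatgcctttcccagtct
Mrpl52, chr14:54426789-54426908 (+): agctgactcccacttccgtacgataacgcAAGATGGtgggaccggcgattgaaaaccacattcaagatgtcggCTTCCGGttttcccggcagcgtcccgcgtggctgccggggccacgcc
Mrpl58, chr11:115403632-115403751 (+): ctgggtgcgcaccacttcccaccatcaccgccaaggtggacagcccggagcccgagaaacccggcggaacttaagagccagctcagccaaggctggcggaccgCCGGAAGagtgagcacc
Mrpl10, chr11:97041440-97041559 (+): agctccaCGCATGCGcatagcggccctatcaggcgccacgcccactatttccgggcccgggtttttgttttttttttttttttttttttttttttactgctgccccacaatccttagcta
Mrps11 and Mrpl46, chr7:78783090-78783118 (+): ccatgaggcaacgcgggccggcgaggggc

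Summed over the 78 members, the level was 2614 ± 199 CPM in CD8 week 4 and 2810 ± 91.2 CPM in CD8 week 1 (SD, n = 5 each). In CD4 cells it was 2587 ± 121 CPM at week 3 and 2796 ± 159 CPM at week 1 (SD, n = 5 each). By library, the sum was 2378 to 2822 CPM in CD8 week 4 and 2686 to 2895 CPM in CD8 week 1, and 2376 to 2682 CPM in CD4 week 3 against 2624 to 3045 CPM in CD4 week 1, so the groups of each lineage overlapped. The summed level of the cytoplasmic ribosomal proteins was higher in the long-term groups, at 86830 ± 3831 CPM in CD8 week 4 and 69070 ± 5118 CPM in CD8 week 1, and 94920 ± 7851 CPM in CD4 week 3 and 74240 ± 4569 CPM in CD4 week 1 (SD, n = 5 each). The ratio of cytoplasmic to mitochondrial ribosomal protein messages was 33.3 ± 1.41 in CD8 week 4 and 24.6 ± 1.44 in CD8 week 1, and 36.9 ± 4.6 in CD4 week 3 and 26.7 ± 2.88 in CD4 week 1 (SD, n = 5 each). It ran from 31.1 to 34.5 in CD8 week 4 and from 23.1 to 26.8 in CD8 week 1, and from 31.2 to 44.0 in CD4 week 3 and from 23.5 to 30.9 in CD4 week 1, with no overlap in either lineage. The ratio of large to small subunit names in these sums had group means of 2.04 to 2.17.

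**Figure D1:**
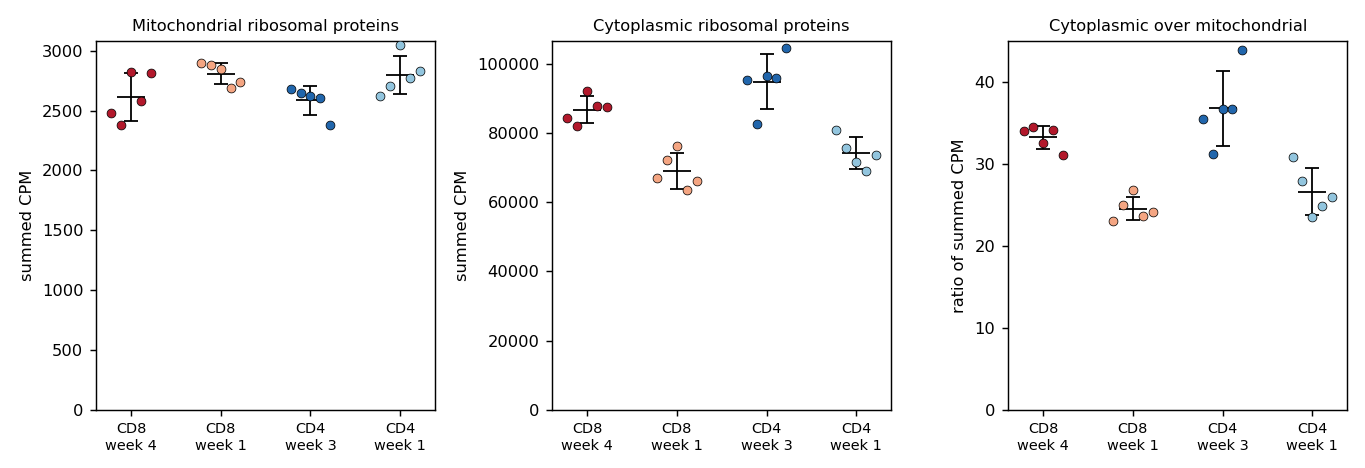
Summed CPM of the 78 mitochondrial ribosomal protein genes (left) and of the cytoplasmic ribosomal protein genes (middle), and the ratio of the second sum to the first (right), by group. Points are libraries, bars the mean and whiskers the SD (n = 5); the ratio of CD8 week 4 (31.1 to 34.5) lies above that of CD8 week 1 (23.1 to 26.8), and that of CD4 week 3 (31.2 to 44.0) above that of CD4 week 1 (23.5 to 30.9).

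In CD8 cells, 18 members fell and 2 rose at week 4 relative to week 1, among 77 that passed the filter on low counts (edgeR quasi-likelihood test, adjusted p under 0.05 over 13290 genes). That is 23.4% lower and 2.60% higher, where 16.4% of all genes were lower and 17.1% higher. The median log2 fold change was -0.17 over the members and 0.03 over all genes tested, and 61 of the 77 members had a negative value. The changes were small, from -0.47 to 0.49 on the log2 scale. Levels did not overlap between the 2 groups for 10 members that were lower and 2 that were higher at week 4, and 9.78% and 11% of all genes did so.

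The member that rose most was Mrpl24 (chr3:87919506-87923672, GRCm38, plus strand), the counterpart of L24, a protein that helps fold the large subunit RNA early in assembly. It had 134, 125, 140.4, 131 and 132 CPM in CD8 week 4, against 93.7, 97.4, 101, 88.5 and 92.8 CPM in CD8 week 1. Every week 4 library was above every week 1 library, and the log2 fold change was 0.49 ± 0.08 (SE, edgeR adjusted p = 0.000304). Mrpl38, a protein of the large subunit with no bacterial counterpart, had 29.6, 27.5, 31.3, 31.9 and 39.0 CPM in CD8 week 4, against 27.43, 26.3, 19.5, 23.9 and 23.9 CPM in CD8 week 1. Its groups touched without overlapping, since the lowest week 4 library had 27.48 CPM, and it rose by 0.39 ± 0.12 (log2, SE, edgeR adjusted p = 0.0143).

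Among proteins without a bacterial counterpart, 6 of 20 tested of the large subunit fell in CD8 cells (30.0%). Of the small subunit 1 of 10 did (10.0%), where 16.4% of all genes tested fell. Mrpl54 of the large subunit changed with the smallest adjusted p among those that fell. It had 19.7, 21.2, 19.2, 17.5 and 22 CPM in CD8 week 4, against 26.2, 29.8, 26.9, 28.1 and 26.5 CPM in CD8 week 1, and fell by 0.47 on the log2 scale (SE 0.08, edgeR adjusted p = 0.000669) with no overlap. Mrpl39, whose fold resembles part of a threonyl-tRNA synthetase, had 31.9, 30.1, 34.2, 31.5 and 33.0 CPM in CD8 week 4, against 38.0, 38.3, 36.7, 38.6 and 39.5 CPM in CD8 week 1. These values did not overlap either, and the fall of 0.25 on the log2 scale (SE 0.06, edgeR adjusted p = 0.00334) was among the smaller ones, with little spread between libraries. Mrpl40 averaged 33.4 ± 3.34 CPM in CD8 week 4 and 43.4 ± 2.22 CPM in CD8 week 1 (SD, n = 5 each) and fell by 0.38 (log2, edgeR adjusted p = 0.00686). The 1 small subunit protein that fell was Mrps22, for which patients with mutations in the human gene are known, named here after its values were seen. It averaged 15.8 ± 2.83 CPM in CD8 week 4 and 21.3 ± 1.07 CPM in CD8 week 1 (SD, n = 5 each).

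Among proteins with a bacterial counterpart, 5 of 30 of the large subunit fell in CD8 cells (16.7%), near the 16.4% of all genes tested. Of the small subunit 6 of 16 fell (37.5%), and Mrpl24 alone rose among proteins with a counterpart. Mrpl18, part of the central protuberance, had 48.8, 48, 59.4, 52.2 and 59.8 CPM in CD8 week 4, against 76, 72.1, 59.9, 77.9 and 81.6 CPM in CD8 week 1. Replicate 3 of week 1 was the lowest of its group, and the groups almost touched without overlapping. Mrpl18 fell by 0.45 on the log2 scale (SE 0.13, edgeR adjusted p = 0.0111). Mrpl28 had 33.8, 30.2, 35.8, 31.9 and 32.7 CPM in CD8 week 4, against 47.6, 48.6, 30.7, 44.5 and 49.5 CPM in CD8 week 1, where replicate 3 again lay with the week 4 libraries. It fell by 0.42 on the log2 scale (SE 0.11, edgeR adjusted p = 0.00842). Mrps16, an early-binding protein of the small subunit body, had 54.7, 51, 52.9, 49.3 and 54.8 CPM in CD8 week 4, against 68.0, 72.8, 61.1, 56.1 and 60.2 CPM in CD8 week 1. No week 4 library reached a week 1 library, and the fall was 0.28 on the log2 scale (SE 0.07, edgeR adjusted p = 0.0088).

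Of the 20 members that passed the test in CD8 cells, 14 did so in each of 10 fits that left out 1 library of the 2 groups. The other 6 were Mrpl12, Mrpl45, Mrpl51, Mrps10, Mrps15 and Mrps18c, and each of the 10 libraries carried at least 1 of these calls. The fit without week 4 replicate 4 lost all 6 (adjusted p 0.0627 to 0.0972). Those without week 4 replicate 1, without week 4 replicate 2, without week 1 replicate 1, without week 1 replicate 2 and without week 1 replicate 5 lost 5 each, with adjusted p up to 0.12. Without week 1 replicate 3 the calls of Mrpl12, Mrps10 and Mrps18c were lost (adjusted p 0.0504 to 0.0839), and without week 1 replicate 4 those of Mrps15 and Mrps18c (0.0546 to 0.0613). Leaving out week 4 replicate 3 or week 4 replicate 5 ended the call of Mrpl45 (0.0775 and 0.0598). Relative to the week 1 mean, the median member was at -0.26, -0.30, -0.01, -0.15 and -0.05 (log2) in the 5 libraries of CD8 week 4, so replicates 1 and 2 were lower than the rest. Without these 2 libraries 7 members were lower and 2 higher, with a median of -0.08. The numbers in the CD8 titles fall in 2 ranges, a lower one for replicates 1 to 3 and a higher one for replicates 4 and 5, whose meaning the labels do not give. The median was -0.23 in the lower range alone, where no member passed the test at 3 libraries a group, and -0.08 in the higher range alone, where 11 were lower and 6 higher.

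**Figure D2:**
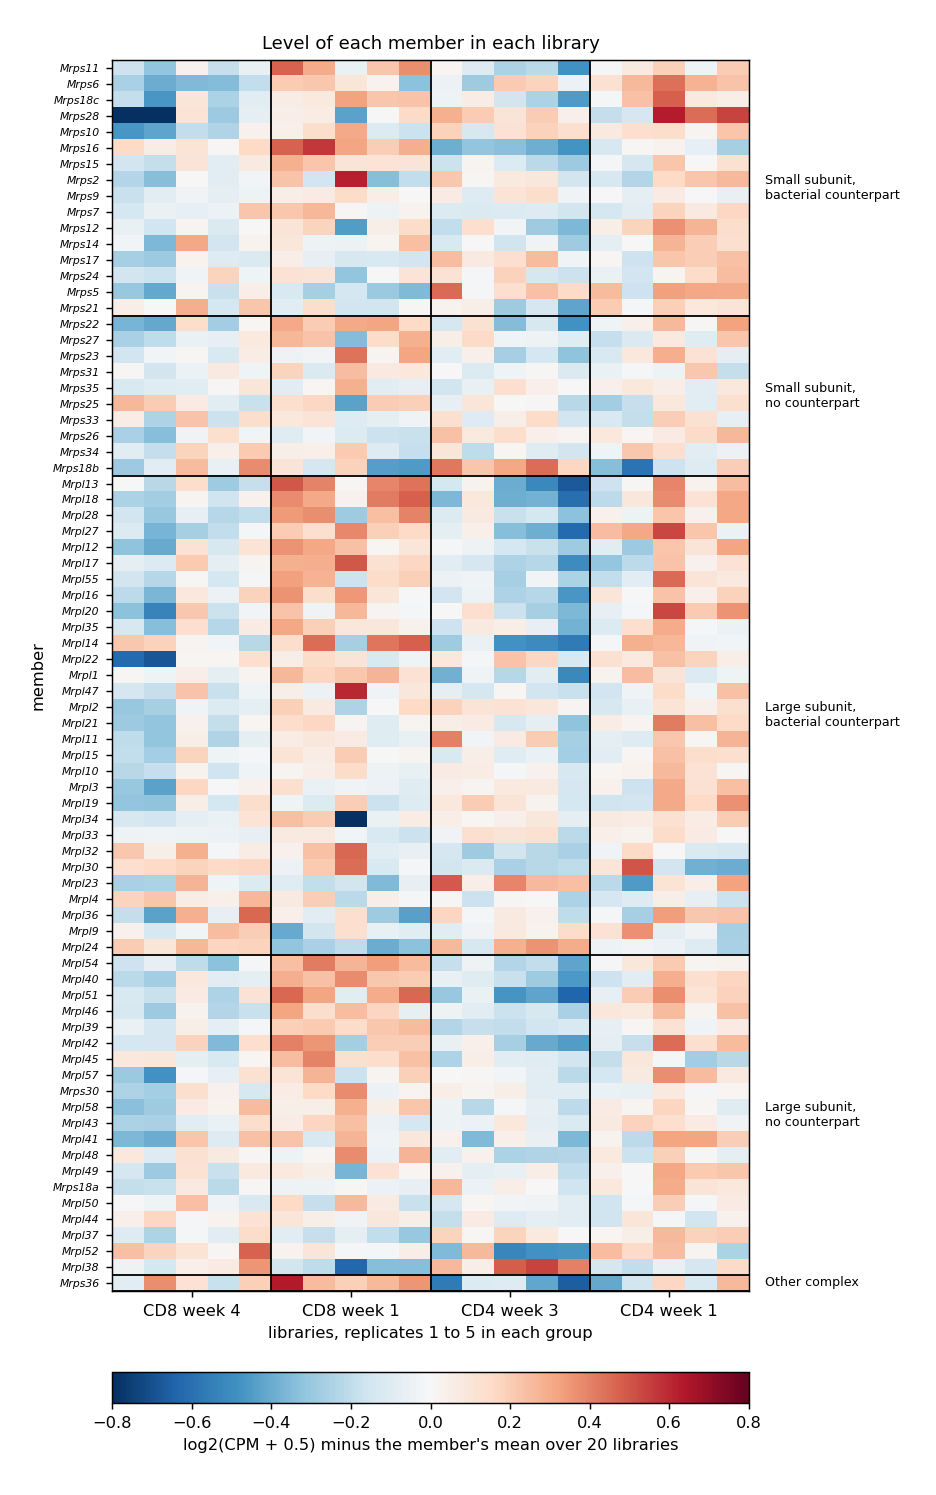
Level of the 77 tested members in each of the 20 libraries, as log2(CPM + 0.5) minus the member's mean over all libraries; blue is lower and red higher, and rows are grouped by role and sorted by the change in CD8 cells. CD8 week 4 replicates 1 and 2 (the first 2 columns) are blue over most rows, where the median member lay 0.26 and 0.30 below the week 1 mean on the log2 scale.

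In CD4 cells, 13 members fell and 3 rose at week 3 relative to week 1. That is 16.9% lower and 3.90% higher, against 8.8% lower and 7.67% higher over all genes tested. The median log2 fold change was -0.15 over the members and 0.01 over all genes, and 64 of 77 members had a negative value. Non-overlapping levels were seen for 7 members, all lower at week 3, where 3.88% of all genes were lower in this sense and 4.27% higher.

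Mrpl51, a mitochondria-specific protein of the large subunit, fell with the smallest adjusted p. It had 19.9, 23.9, 17.7, 18.3 and 15.8 CPM in CD4 week 3, against 23.6, 28.6, 32.2, 26.8 and 28.2 CPM in CD4 week 1, and fell by 0.54 on the log2 scale (SE 0.12, edgeR adjusted p = 0.00867). Its groups overlapped only through week 3 replicate 2, the library with the high S phase and mitosis level. Mrpl27, the counterpart of the bacterial L27 whose tail reaches the peptidyl transferase centre, had 15.1, 16.4, 12.5, 12 and 10.2 CPM in CD4 week 3, against 19, 19.9, 23.4, 18.7 and 15.4 CPM in CD4 week 1. The lowest week 1 library lay within the week 3 values, and the fall was 0.54 on the log2 scale (SE 0.13, edgeR adjusted p = 0.0101). Mrps16 had 37.3, 39.4, 38.8, 37.3 and 35.0 CPM in CD4 week 3, against 44.8, 49.3, 50.0, 46.7 and 40.7 CPM in CD4 week 1, without overlap (log2 fold change -0.30, SE 0.07, edgeR adjusted p = 0.0125). Mrpl14, a protein on the intersubunit face, averaged 14.7 ± 2.34 CPM in CD4 week 3 and 20.5 ± 2.39 CPM in CD4 week 1 (SD, n = 5 each) and fell by 0.48 (log2, edgeR adjusted p = 0.0292).

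The 3 members that rose in CD4 cells were Mrpl24, Mrpl38 and Mrps18b. Mrpl24 had 139.6, 107, 142, 149.8 and 143 CPM in CD4 week 3, against 113, 115, 113, 109 and 97.2 CPM in CD4 week 1. Week 3 replicate 2 lay among the week 1 libraries and the other 4 above all of them (log2 fold change 0.32, SE 0.08, edgeR adjusted p = 0.012). Mrpl38 had 36.5, 31.4, 42.8, 44.5 and 40.4 CPM in CD4 week 3, against 27.6, 26.4, 29.2, 27.7 and 33.9 CPM in CD4 week 1 (log2 fold change 0.43, SE 0.12, edgeR adjusted p = 0.0175). Mrps18b had 25.7, 22.4, 23.8, 26.2 and 21.5 CPM in CD4 week 3, against 15, 12.5, 17, 17.8 and 22 CPM in CD4 week 1 (log2 fold change 0.51, SE 0.16, edgeR adjusted p = 0.0403). In both genes a week 1 library, replicate 5, reached into the week 3 range.

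By role, 6 of 30 large subunit proteins with a bacterial counterpart and 5 of 20 tested without one fell in CD4 cells. Of the small subunit, 2 of 16 with a counterpart fell. Of the 10 small subunit proteins without a counterpart, 1, Mrps18b, rose (10.0%) and 9 did not pass, 1 of them lower at an unadjusted p under 0.05. Of the 16 calls in CD4 cells, 4, namely Mrpl24, Mrpl27, Mrpl51 and Mrps16, passed in each of 10 fits that left out 1 library. Without week 3 replicate 3, 12 calls were lost (adjusted p 0.0524 to 0.0907), without week 1 replicate 3 or week 3 replicate 4, 11 each (0.0594 to 0.135 and 0.0523 to 0.124), and without week 3 replicate 5, 10 (0.0557 to 0.132). The fits without week 1 replicate 5, week 3 replicate 1 and week 1 replicate 2 lost 6, 5 and 4 calls, and those without week 1 replicate 1 and without week 1 replicate 4 lost 3 each, with adjusted p up to 0.101. Leaving out week 3 replicate 2 lost no call and brought the number of members that were lower to 20. Mrps12 and Mrps18b were lost in 8 of the 10 fits each.

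The 2 lineages shared 9 members that fell: Mrpl13, Mrpl18, Mrpl27, Mrpl39, Mrpl40, Mrpl46, Mrpl51, Mrpl54 and Mrps16. They make up 50.0% of those lower in CD8 cells and 69.2% of those lower in CD4 cells. Over all 13290 genes, the 797 that fell in both make up 36.5% of those lower in CD8 cells and 68.2% of those lower in CD4 cells. Mrpl24 and Mrpl38 were higher in both. Across the 77 members the 2 log2 fold changes correlated with Pearson's r = 0.668 and Spearman's rho = 0.608, against 0.632 and 0.66 across 13290 genes (genes are not independent replicates). Both changes were negative in 54 members and both positive in 6. Without CD4 week 3 replicate 2 and CD8 week 1 replicate 3, 27 members were lower in CD8 cells and 23 in CD4 cells, of which 17 were shared, and the medians were -0.16 in each lineage.

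**Figure D3:**
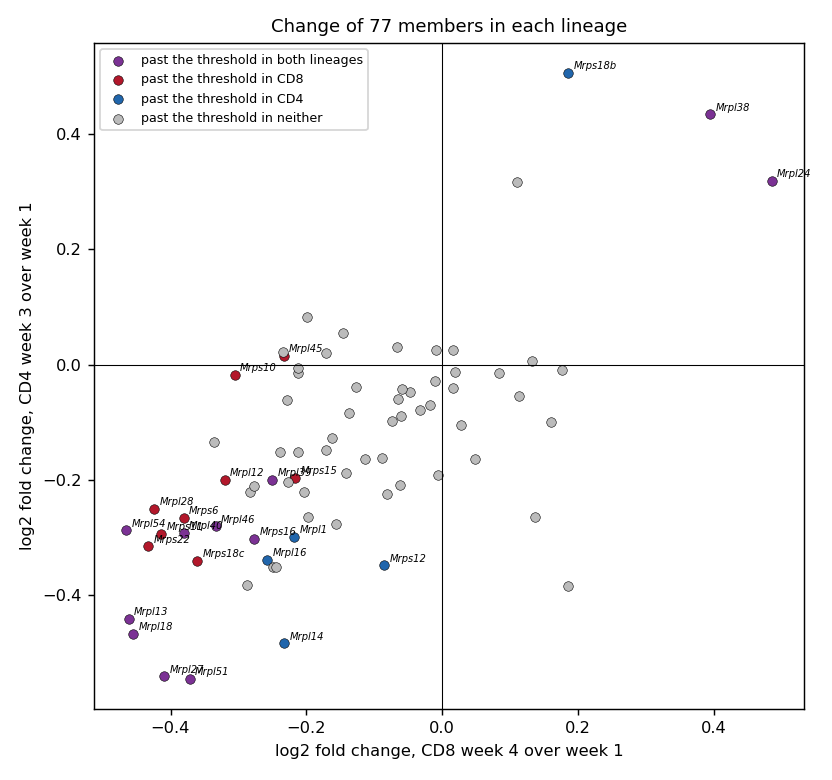
Log2 fold change of the 77 tested members in CD8 cells (week 4 over week 1, horizontal) and in CD4 cells (week 3 over week 1, vertical), coloured by which test passed an adjusted p of 0.05. Most points (54) lie at the lower left, below 0 on both axes, and Mrpl24 and Mrpl38 stand apart at the upper right.

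No member passed the test of the difference between the 2 changes (CD8 minus CD4), where 0.655% of all genes did. By edgeR, 5 members had an unadjusted p under 0.05, and DESeq2 and limma-voom also called 0. The differences had a median of -0.01 and ran from -0.32 to 0.57 on the log2 scale. The highest was that of Mrpl52, a large subunit protein found only in mitochondria. It had 33.9, 32.6, 31.0, 29.0 and 40.0 CPM in CD8 week 4, against 29.3, 30.7, 28.3, 28.3 and 29.7 CPM in CD8 week 1. In CD4 cells it had 22.3, 34.4, 19.8, 20.4 and 20.5 CPM at week 3, against 34.1, 31.9, 34.0, 29.2 and 24.0 CPM at week 1. Its difference was 0.57 ± 0.20 (log2, SE, edgeR adjusted p = 0.216). In CD4 week 3, replicate 2 lay above the other 4 libraries.

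Without CD4 week 3 replicate 2 the difference of Mrpl52 was 0.73 ± 0.14 (log2, SE, edgeR adjusted p = 0.0252), the only member then past the threshold. This gene was singled out after its values were seen. A p that misses the threshold does not show that the lineages acted alike.

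**Figure D4:**
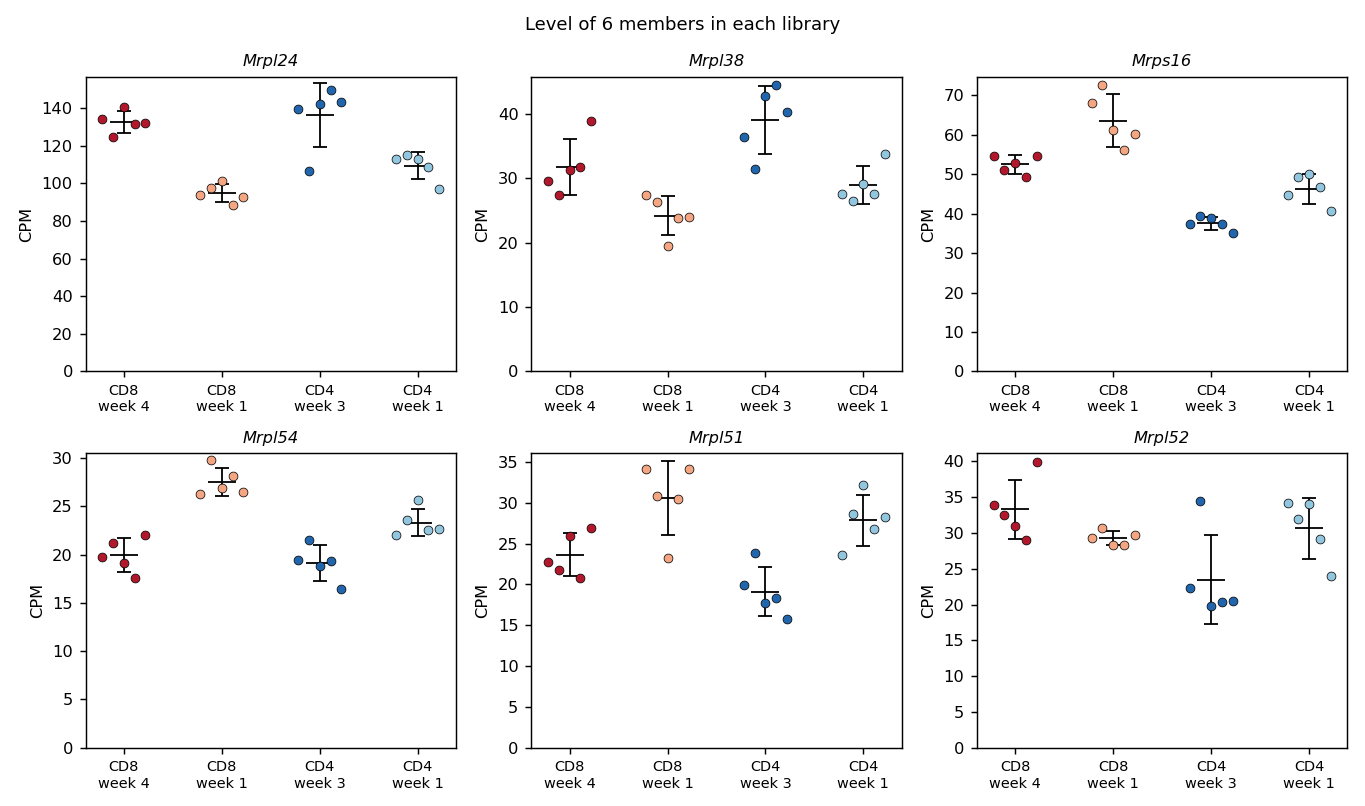
CPM of 6 members in each library, by group; points are replicates 1 to 5 from left to right, bars the mean and whiskers the SD (n = 5). Mrpl24 and Mrpl38 are higher in the long-term group of each lineage, Mrps16, Mrpl54 and Mrpl51 lower, and Mrpl52 is at 34.4 CPM in CD4 week 3 replicate 2 and at 19.8 to 22.3 CPM in the other 4 libraries.

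Few members differed between CD8 and CD4 cells. At week 1, 5 were higher and 4 lower in CD8 cells (11.7% of 77), where 38.1% of all genes passed the test, 19.1% higher and 19% lower. At the long-term points, 6 were higher and 5 lower in CD8 week 4 than in CD4 week 3, where 32.7% of all genes passed, 17.7% higher and 15% lower. Levels did not overlap for 4 members that were higher and 2 that were lower in CD8 cells at week 1, where 12.4% and 11.3% of all genes did so, and for 4 higher and 1 lower at the long-term points, where 11.3% and 9.3% did so. Lineage and title range cannot be told apart, since CD4 titles form a range of their own, and the long-term groups also differ in days of culture.

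Mrps16 was higher in CD8 cells at both points. Its week 1 values, 56.1 to 72.8 CPM in CD8 cells and 40.7 to 50.0 CPM in CD4 cells, did not overlap (log2 fold change 0.46, SE 0.07, edgeR adjusted p = 0.000126). Nor did its long-term values, 49.3 to 54.8 CPM in CD8 week 4 and 35.0 to 39.4 CPM in CD4 week 3 (log2 fold change 0.48, SE 0.07, edgeR adjusted p = 7.56e-05). Mrpl45, which ties the ribosome to the inner membrane, had 45.3, 50.2, 41.7, 42.0 and 44.9 CPM in CD8 week 1, against 33.3, 40.5, 37.7, 31.4 and 32.7 CPM in CD4 week 1 (log2 fold change 0.35, SE 0.08, edgeR adjusted p = 0.00281). At the long-term points the Mrpl45 means were 38.1 ± 2.56 CPM in CD8 week 4 and 35.5 ± 2.77 CPM in CD4 week 3 (SD, n = 5 each), which did not pass the test. Mrps5, a counterpart of the bacterial S5 at the messenger entry, was lower in CD8 cells at both points: it averaged 37.4 ± 2.64 CPM in CD8 week 1 and 51.3 ± 6.86 CPM in CD4 week 1, and 39.6 ± 5.59 CPM in CD8 week 4 and 50.7 ± 6.22 CPM in CD4 week 3 (SD, n = 5 each). Its log2 fold changes were -0.46 at week 1 and -0.36 at the long-term points (edgeR adjusted p = 0.00365 and 0.0192). Mrpl37 averaged 41.4 ± 2.67 CPM in CD8 week 1 and 51.5 ± 3.81 CPM in CD4 week 1 (SD, n = 5 each; log2 fold change -0.31, edgeR adjusted p = 0.00385).

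At the long-term points Mrpl52, whose library values are given above, was higher in CD8 week 4 than in CD4 week 3 by 0.50 ± 0.14 (log2, SE, edgeR adjusted p = 0.00927). Mrpl32, a zinc-binding protein of the large subunit that is matured by the m-AAA protease, had 31.3, 27.8, 32.8, 26.7 and 28.1 CPM in CD8 week 4, against 24.4, 21.9, 24.2, 23 and 22.4 CPM in CD4 week 3, without overlap (log2 fold change 0.34, SE 0.10, edgeR adjusted p = 0.0147). Mrps10 averaged 19 ± 2.79 CPM in CD8 week 4 and 24.4 ± 2.13 CPM in CD4 week 3 (SD, n = 5 each; log2 fold change -0.36, edgeR adjusted p = 0.0154). Mrpl4 averaged 59.1 ± 4.11 CPM in CD8 week 4 and 50.2 ± 4.22 CPM in CD4 week 3. Mrpl2 averaged 32.7 ± 2.73 and 39.2 ± 1.59 CPM, and Mrps17 46.1 ± 4.22 and 56.2 ± 4.73 CPM (SD, n = 5 each). These 3 passed the test, as did Mrpl14, higher in CD8 cells, and Mrps6, lower. Each of these 5 calls was lost in 3 to 6 of 10 fits that left out 1 library.

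Leaving out 1 library at a time, Mrps16, Mrpl45, Mrps5, Mrpl37 and Mrpl39 kept their week 1 calls in all 10 fits, and Mrps16, Mrpl52 and Mrpl32 their long-term calls. The 4 other week 1 calls (Mrpl17, Mrpl24, Mrpl54 and Mrps26) were lost in 4 to 8 of 10 fits. Without CD4 week 1 replicate 4 all 4 were lost (adjusted p 0.0557 to 0.0654). The fits without replicate 1 of CD4 week 1 and without replicates 2 or 4 of CD8 week 1 lost 3 each and those without the other libraries 1 or 2, with adjusted p up to 0.116. Of the long-term calls, 7 were lost without CD8 week 4 replicate 1 (adjusted p 0.0507 to 0.0794) and 7 without CD8 week 4 replicate 2 (0.0511 to 0.105), so that 4 members passed in each of these fits. Those without CD4 week 3 replicates 4, 1 and 5 lost 4, 3 and 3, and those without each of the other 5 libraries lost 1 or 2, with adjusted p up to 0.1. Without CD4 week 3 replicate 2, 17 members passed.

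Levels between genes were compared as CPM per kilobase of merged exon. Mrps16 stood highest in every group, with 92.8 ± 4.23 CPM per kb in CD8 week 4 and 112 ± 11.8 CPM per kb in CD8 week 1, and with 66.3 ± 2.99 CPM per kb in CD4 week 3 and 81.8 ± 6.61 CPM per kb in CD4 week 1 (SD, n = 5 each), on a model of 566 bases. Mrpl42 and Mrpl24 followed with means over all libraries of 54.6 and 52.4 CPM per kb. Their order was not the same in every group: in CD8 week 4 Mrpl42 had 51.9 ± 7.96 and Mrpl24 58.8 ± 2.53 CPM per kb, within their spread, and in CD8 week 1 they had means of 61.5 and 42 CPM per kb. The median member was at 14.1 CPM per kb. This order depends on the gene models: per kilobase of the median coding transcript, Mrps16 ranked 51 of 78, Mrpl42 9 and Mrpl24 3. At the low end stood Mrpl23 with 2.76, Mrps36 with 2.44 and Mrpl53 with 0.137 CPM per kb over all libraries. Mrpl53 was the only member under the filter, with 48 counts in all 20 libraries together. Of its exon bases, 88.0% also belong to the gene model Gm42688 on the same strand, where the authors' counting leaves reads out, so its transcription cannot be read from this value. Exon bases were shared by 8 members in all, among them Mrps34 (37.0%, with Nme3) and Mrps18c (23.2%, with Gm43511), and their counts are uncertain to that extent.

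Several members have a role of their own within the ribosome. Mrpl12, Mrpl10 and Mrpl11 form the stalk that binds translation factors. Of these Mrpl12 fell in CD8 cells, to 53.3 ± 8.92 CPM in week 4, against 66.5 ± 6.54 CPM in week 1 (SD, n = 5 each; log2 fold change -0.32, edgeR adjusted p = 0.047). It averaged 52.6 ± 3.99 CPM in CD4 week 3 and 60.4 ± 10.0 CPM in CD4 week 1 (SD, n = 5 each), which did not pass. Mrpl10 averaged 56.7 ± 4.26 CPM in CD8 week 4, 62.4 ± 3.59 CPM in CD8 week 1, 61.5 ± 3.32 CPM in CD4 week 3 and 65.2 ± 5 CPM in CD4 week 1 (SD, n = 5 each). Mrpl11 had group means of 20.9 to 24.9 CPM, and neither gene passed a test. Mrpl58, the peptidyl-tRNA hydrolase that frees stalled ribosomes, averaged 49.2 ± 8.54 CPM in CD8 week 4, 55.4 ± 4.51 CPM in CD8 week 1, 46.8 ± 3.12 CPM in CD4 week 3 and 51.9 ± 3.49 CPM in CD4 week 1 (SD, n = 5 each), and passed none. Mrpl44, which has a ribonuclease III fold, had a group mean of 32.5 to 36.0 CPM, and Mrps34 of 43.1 to 46.3 CPM, with no test passed.

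Mrps18a, Mrps18b and Mrps18c are related in sequence to the bacterial S18. Only Mrps18c is counted here as its counterpart, since the others take places of their own in the mitochondrial ribosome and are counted among the proteins without one. Mrps18c fell in CD8 cells, to 19.5 ± 2.87 CPM in week 4, against 25.0 ± 1.95 CPM in week 1 (SD, n = 5 each; log2 fold change -0.36, edgeR adjusted p = 0.0282), and Mrps18b rose in CD4 cells as given above. Mrps18a, which despite its name sits in the large subunit, averaged 23.9 ± 2.25 CPM in CD8 week 4, 24.9 ± 0.50 CPM in CD8 week 1, 26.1 ± 2.96 CPM in CD4 week 3 and 27.8 ± 2.24 CPM in CD4 week 1 (SD, n = 5 each), and passed no test. Mrps30, likewise a large subunit protein, had group means of 37.3 to 43.2 CPM and passed none. Mrps12, a protein of the decoding centre, fell in CD4 cells, to 18.4 ± 2.68 CPM in week 3, against 23.5 ± 2.06 CPM in week 1 (SD, n = 5 each; log2 fold change -0.35, edgeR adjusted p = 0.0487). Mrps36 carries a ribosomal name but is known as a subunit of the 2-oxoglutarate dehydrogenase complex. It had 2.82, 4.06, 3.31, 2.61 and 3.53 CPM in CD8 week 4, against 1.88, 2.77, 2.78, 2.14 and 1.73 CPM in CD4 week 3, and was higher in CD8 cells at these points (log2 fold change 0.53, SE 0.19, edgeR adjusted p = 0.0372).

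Of the 26 members with the shortest merged exons (566 to 1466 bases), 9 fell in CD8 cells and 9 in CD4 cells, with median log2 fold changes of -0.25 and -0.28. Of the 25 in the middle (1532 to 2919 bases), 5 fell and 2 rose in CD8 cells, and 1 fell and 3 rose in CD4 cells. Their medians were -0.17 and -0.07. Of the 26 longest (3226 to 8631 bases), 4 fell in CD8 cells and 3 in CD4 cells, with medians of -0.08 and -0.09. Across the members, log2 exon length and log2 fold change correlated with Pearson's r = 0.153 in CD8 cells and 0.301 in CD4 cells, against 0.0016 and 0.0176 across all genes. Across 76 nuclear-encoded subunits of the respiratory chain r was 0.155 in CD8 cells and 0.183 in CD4 cells. It was -0.0502 and 0.0429 across 83 cytoplasmic ribosomal proteins. Spearman's rho in CD8 and CD4 cells was 0.2155 and 0.3985 across the members, and 0.05 and 0.2179 across the respiratory chain subunits. Across the cytoplasmic ribosomal proteins rho was -0.1107 and -0.0897, and across all genes 0.0236 and 0.0393. RNA quality values were not among the data used here, and the part of transcript length in these changes was not tested. The spread between replicates was smaller in members than in genes at large. The median biological coefficient of variation was 13.4% over the members and 18.0% over all genes tested. Genes were not matched for level, on which this spread can depend, so whether it is a trait of the members was not tested.

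In the rest of the mitochondrial translation machinery, 28 genes for assembly of the mitochondrial ribosome and modification of its RNA were tested. Of these, 3 rose and 3 fell in CD8 cells (10.7% each) and 1 rose in CD4 cells (3.57%). Over all genes tested, 17.1% rose and 16.4% fell in CD8 cells, and 7.67% rose and 8.8% fell in CD4 cells. The assembly GTPase gene Mtg2 had 26.9 ± 2.45 CPM in CD8 week 4 and 20.4 ± 1.31 CPM in CD8 week 1, and the small subunit assembly factor gene Mettl17 had 36.3 ± 3.25 CPM in CD8 week 4 and 26.7 ± 1.36 CPM in CD8 week 1 (SD, n = 5 each). Their log2 fold changes were 0.40 and 0.44 (edgeR adjusted p = 0.00228 and 0.00345). The RNA methyltransferase gene Trmt2b fell to 44.7 ± 3.97 CPM in CD8 week 4, against 58.7 ± 4.01 CPM in CD8 week 1 (SD, n = 5 each), without overlap. In CD4 cells Mrm1, which methylates the large ribosomal RNA, rose to 34.5 ± 5.65 CPM at week 3, against 22.6 ± 3.82 CPM at week 1 (SD, n = 5 each; log2 fold change 0.61, edgeR adjusted p = 0.00531). Of 18 translation factors, 3 rose (16.7%) and 1 fell (5.56%) in CD8 cells and 1 rose in CD4 cells (5.56%). Metap1d, which removes the first methionine of proteins made in mitochondria, rose in both, with log2 fold changes of 0.53 in CD8 cells and 0.72 in CD4 cells (edgeR adjusted p = 0.0152 and 0.00635), whereas the elongation factor gene Tsfm fell by 0.39 in CD8 cells (log2, edgeR adjusted p = 0.0162).

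Of 20 genes for charging mitochondrial tRNA, 4 rose and 2 fell in CD8 cells and 1 rose in CD4 cells. The tryptophanyl-tRNA synthetase gene Wars2 rose in both without overlap: it had 20.9 ± 1.22 CPM in CD8 week 4 and 14 ± 0.67 CPM in CD8 week 1, and 16.9 ± 1.36 CPM in CD4 week 3 and 12.4 ± 0.73 CPM in CD4 week 1 (SD, n = 5 each). Of 22 genes for transcription, maintenance and processing of mitochondrial DNA and its RNA, 2 rose (9.09%) and 1 fell (4.5%) in CD8 cells and 1 rose and 1 fell (4.5% each) in CD4 cells. Tfam, which packages mitochondrial DNA and starts its transcription, was the gene that fell in both, by 0.21 in CD8 cells and 0.28 in CD4 cells on the log2 scale (edgeR adjusted p = 0.043 and 0.0207). Of the 13 messages made in the mitochondrion, 7 passed the filter. Among these, 3 rose in CD8 cells (42.9%) and 4 in CD4 cells (57.1%). Why the rest stayed under the filter was not tested, so these shares cover only part of the list. mt-Cytb had 2546 ± 675 CPM in CD8 week 4 and 1541 ± 341 CPM in CD8 week 1, and mt-Nd5 had 3403 ± 1045 CPM in CD4 week 3 and 1966 ± 226 CPM in CD4 week 1 (SD, n = 5 each; edgeR adjusted p = 0.00778 and 0.0168). The small ribosomal RNA mt-Rnr1 fell in CD8 cells, to 481 ± 82.9 CPM in week 4, against 890 ± 166.5 CPM in week 1 (SD, n = 5 each), in libraries made from polyadenylated RNA, which hold only part of it. The 5 mitochondrial ribosomal proteins that carry other names (Dap3, Ptcd3, Chchd1, Aurkaip1 and Gadd45gip1) had median log2 fold changes of -0.16 in CD8 cells and -0.10 in CD4 cells, and of these Gadd45gip1 fell in CD8 cells.

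Of the nuclear-encoded subunits of the respiratory chain, 16 of 76 fell in CD8 cells (21.1%) and 18 in CD4 cells (23.7%), with none higher. Of all genes tested, 16.4% and 8.8% fell. The medians of these subunits were -0.15 and -0.20. Of 83 cytoplasmic ribosomal proteins, 60 rose in CD8 cells (72.3%) and 59 in CD4 cells (71.1%), where 17.1% and 7.67% of all genes rose. None was lower, and the medians were 0.33 and 0.36. The 16 genes of S phase and mitosis all fell in CD8 cells and 8 of them passed in CD4 cells, with medians of -1.76 and -1.57. Their part in the changes of the members was not tested. Of 8 tested transcription factors and coactivators of mitochondrial genes, 2 rose (25.0%) and 3 fell (37.5%) in CD8 cells and 2 fell in CD4 cells (25.0%). Those that fell in both were Nrf1, whose site core was among the motifs above, and Gabpb1, a subunit of the ETS factor GABP. Nrf1 had 49 ± 2.03 CPM in CD8 week 4 and 65.1 ± 10.3 CPM in CD8 week 1, and 49.8 ± 4.61 CPM in CD4 week 3 and 62.5 ± 4.10 CPM in CD4 week 1 (SD, n = 5 each). Gabpb1 had 38.9 ± 2.97 CPM in CD8 week 4 and 54.2 ± 7.92 CPM in CD8 week 1, and 35.0 ± 3.06 CPM in CD4 week 3 and 44.8 ± 6.24 CPM in CD4 week 1 (SD, n = 5 each). ETS letters were in the promoter windows of 6 of 16 members lower in CD8 cells (37.5%) and of 18 of 51 that did not pass (35.3%), NRF1 letters in 1 of 16 (6.25%) and 7 of 51 (13.7%), and Sp1 letters in 10 of 16 (62.5%) and 24 of 51 (47.1%). In CD4 cells, ETS letters were in 5 of 11 members that were lower (45.5%) and in 18 of 55 that did not pass (32.7%), NRF1 letters in 1 of 11 (9.09%) and 6 of 55 (10.9%), and Sp1 letters in 8 of 11 (72.7%) and 25 of 55 (45.5%). YY1 letters were in 1 of 16 (6.25%) and 12 of 51 (23.5%) in CD8 cells, and in 1 of 11 (9.09%) and 12 of 55 (21.8%) in CD4 cells. The E-box was in 1 of 16 (6.25%) and 4 of 51 (7.84%) in CD8 cells, and in 0 of 11 and 5 of 55 (9.09%) in CD4 cells.

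**Figure D5:**
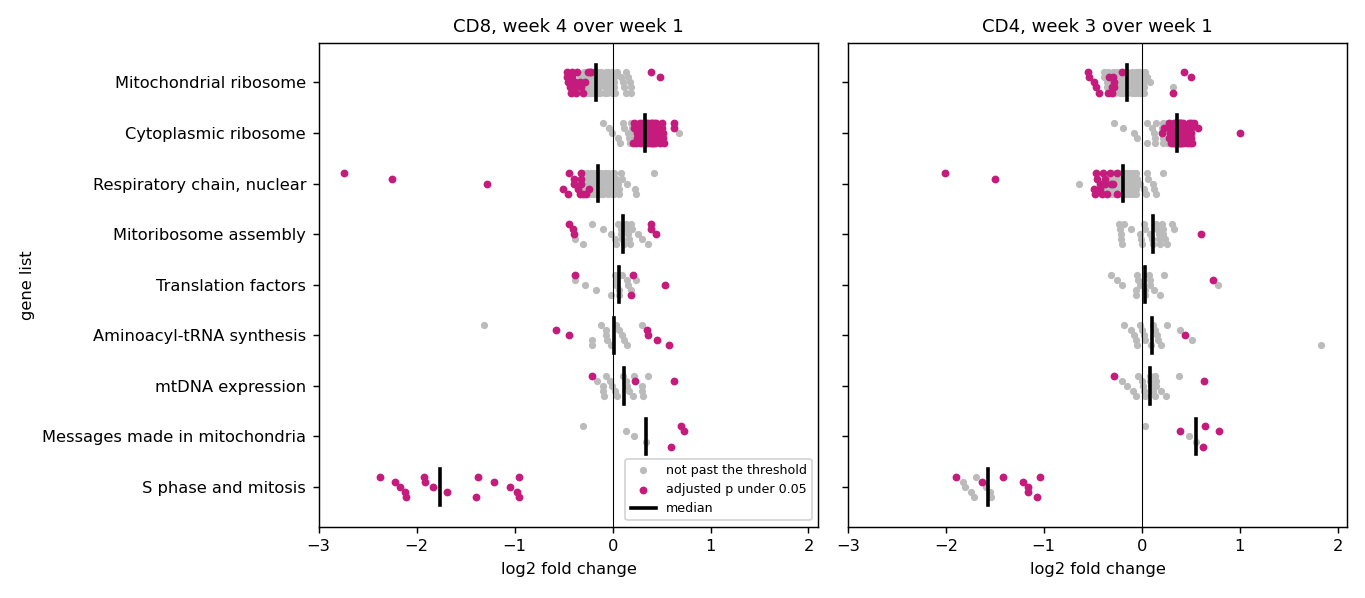
Log2 fold change of each tested gene of 9 lists in CD8 cells (week 4 over week 1, left) and CD4 cells (week 3 over week 1, right); coloured points passed an adjusted p of 0.05 and black bars are medians. Mitochondrial ribosomal proteins (medians -0.17 and -0.15) and respiratory chain subunits (-0.15 and -0.20) lie left of 0, and cytoplasmic ribosomal proteins (0.33 and 0.36) right of it.

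By position, the 78 members lie on 17 chromosomes, with 11 of them on chromosome 11, and many start beside another gene. A protein-coding gene on the other strand started within 1000 bases of 33 members (42.3%), against 10.9% of 21951 protein-coding genes. The only such pair of members was Mrps11 and Mrpl46, whose GENCODE start sites lie 412 bases apart within gene spans that overlap. The exon-free stretch printed above lies between their RefSeq start sites, inside the GENCODE span of Mrpl46. Mrps11 had 18.8, 16.8, 21.6, 18.5 and 20.2 CPM in CD8 week 4, against 29.4, 26, 20.3, 24.7 and 27.5 CPM in CD8 week 1, and Mrpl46 had 18.5, 16.6, 20.8, 17.2 and 17.9 CPM in CD8 week 4, against 25.5, 22.5, 24.3, 23 and 19.4 CPM in CD8 week 1. Both fell in CD8 cells, by 0.41 and 0.33 on the log2 scale (edgeR adjusted p = 0.00787 and 0.00748), and each overlapped through its lowest week 1 library, replicate 3 for Mrps11 and replicate 5 for Mrpl46. Of the 31 neighbours that are no member, 28 were tested. In CD8 cells 7 of these fell, 7 rose and 14 did not pass, and in CD4 cells 6 fell, 3 rose and 19 did not pass. Of all genes tested, 16.4% fell and 17.1% rose in CD8 cells, and 8.8% fell and 7.67% rose in CD4 cells. Mrpl51 starts 100 bases from Ncapd2, a condensin subunit gene with log2 fold changes of -1.77 in CD8 cells and -1.42 in CD4 cells, and Mrpl27 starts 197 bases from Eme1, a nuclease subunit gene with -1.81 and -1.90 (edgeR adjusted p of these neighbours 0.00433, 0.028, 0.0074 and 0.0137). The neighbours named here were picked after their values were seen. Mrpl54 starts 26 bases from Apba3, whose log2 fold change in CD8 cells was 0.14 (edgeR adjusted p = 0.458), and Mrpl37 starts 120 bases from Cyb5rl, which rose by 1.06 in CD8 cells (log2, edgeR adjusted p = 0.00113) while Mrpl37 did not pass the test.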

How the data were processed

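RNA of the 20 libraries was sequenced as strand-specific, polyadenylated libraries, per the labels' protocols. Per the file headers, the authors counted reads per gene with featureCounts 1.6.3 on the GENCODE M12 annotation of GRCm38 with strand setting 2, and no option to count multi-mapping or overlapping reads was given, so reads shared between genes are missing from the deposited counts. The submitters' processing notes also name STAR and mm10. The deposited counts are whole numbers with no normalization, beside each gene's merged exon length in bases, and no column was left unused.

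Genes passing edgeR's expression filter (13290 of 49671) were fitted with edgeR 4.0.16, TMM factors and the quasi-likelihood test, as 4 group means over all 20 libraries and 5 contrasts. p-values were adjusted by the Benjamini-Hochberg method over all genes tested, with a threshold of 0.05. CPM used TMM-scaled library sizes. SEs were derived from each gene's F statistic and its fold change. The scripts were tested on simulated data. Each library counted as 1 sample. Pairs of replicates differed by more than sampling noise in 40 of 40 cases, which cannot show that they came from separate animals or cultures. Intervals were not drawn from depth, since the spread between libraries exceeds counting error.

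The members and the other gene lists were chosen with earlier results of these data known. Symbols, biotypes and start sites of neighbours came from GENCODE M21 on the same build, which matched 49326 gene IDs. Members are named in the text if they were among the 8 called with the smallest adjusted p in each direction of a long-term change (4 in the other comparisons), the 3 highest or 3 lowest per kilobase, under the filter, or on a list of 13 members with a role of their own. Of each other list, at most 2 called genes in each direction are named. Members outside this rule appear in counts and, by name, where calls that were shared, lost or kept are listed, and Mrps22 and the neighbouring genes were added after seeing values. Alternatives were other scalings, DESeq2 1.42.0, limma-voom 3.58.1, filters, the groups compared alone, the title ranges, and each library left out. Leaving out CD8 week 4 replicates 1 and 2, or CD4 week 3 replicate 2 with CD8 week 1 replicate 3, was chosen after seeing the data, as was pairing libraries by adjacent titles, since the labels give no shared replicate numbers.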

Additional observations from a re-analysis of the deposited data

Results flagged for a closer look

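Single libraries stood far from the other 4 of their group in 8 of 156 groups of values tested (5.13%), where chance flags about 1 in 20. In CD4 week 3, replicate 2 was the lowest for Mrpl24 (106.8 CPM) and Mrps10 (20.66 CPM) and the highest for Mrpl52 (34.43 CPM). In CD8 week 1, replicate 3 was the lowest for Mrps12 (14.77 CPM) and Mrpl28 (30.72 CPM) and the highest for Mrpl27 (20.99 CPM). These are also the libraries that stand apart from their groups in the S phase and mitosis list, at 3768 CPM in CD4 week 3 replicate 2 and 3214 CPM in CD8 week 1 replicate 3, and the part of this in the member values was not tested. Mrps5 was low in CD4 week 1 replicate 2 (39.13 CPM), and the summed level of the members was low in CD4 week 3 replicate 5 (2376 CPM).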

How the results depend on the processing

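The median change of the members was negative in both lineages under every alternative run, from -0.23 to -0.08 (log2) in CD8 cells and from -0.19 to -0.11 in CD4 cells. The number of members called in CD8 cells, 20 in the fit reported, was 0 in the lower title range alone, 13 with no filter, 9 without CD8 week 4 replicates 1 and 2, and 14 to 22 with each library left out. In CD4 cells, 16 became 7 with no filter, 7 with only the groups compared, 26 without CD4 week 3 replicate 2 and CD8 week 1 replicate 3, and 4 to 23 with each library left out. For the difference of changes, 0 became 1 without those 2 libraries and 0 to 1 with each left out. At week 1, 9 became 5 with no filter, 16 without those 2 libraries and 5 to 11 with each left out. At the long-term points, 11 became 18 with DESeq2, 6 with no filter, 22 without those 2 libraries, 2 without CD8 week 4 replicates 1 and 2, and 4 to 17 with each left out. Mrps10 turned its direction in CD8 cells (0.0235) in the higher title range alone. Apart from left-out libraries, fewer samples and the filter by construction, the cause was not tested. The labels pair no libraries. With adjacent titles as a replicate block, chosen after seeing the data, 16 members were called in CD8 cells, 11 in CD4 cells and 0 in the difference, and deviations of the paired libraries correlated at -0.102 to 0.503 in CD8 and -0.165 to 0.457 in CD4 cells. Mrpl53 cannot be judged from its 48 counts in all, since 88.0% of its exon bases are shared with Gm42688.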
